A study of Mus musculus with 16 samples.

Results

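The clustered protocadherin genes are the Pcdha, Pcdhb and Pcdhg genes of mouse chromosome 18, which lie head to tail in 3 neighbouring clusters (mm10 chr18:36930184-37841873, 912 kb). All listed genes whose symbol starts with Pcdha, Pcdhb or Pcdhg were taken, which gave 5 of the 661 distinct genes in the deposited tables. These were Pcdha3 and Pcdha12 among 263 genes of the ipsilesional table and Pcdhb6, Pcdhb7 and Pcdhb9 among 417 genes of the contralesional table. RefSeq (GRCm38.p6) holds 58 genes of the clusters, so the tables list 2 of 14 alpha genes on the lesion side, 3 of 22 beta genes on the other side and 0 of 22 gamma genes. No cluster gene stands in both tables. The other 53 were not analysed here.

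The mice were 8 C57Bl6 animals that had a stroke, and the labels give them no further genotype or treatment. Of these, 3 had recovered spontaneously on a horizontal rotating beam (animals 6, 23 and 28) and 5 had not (animals 17, 19, 20, 21 and 29). Primary motor cortex of the lesioned hemisphere (ipsilesional, iM1) and of the opposite one (contralesional, cM1) was sequenced from each animal. All 8 animals, recovered or not, carry the lesion, so no unlesioned group is included. The labels used here state neither age nor time after stroke. Throughout, a log2 difference is the mean log2 CPM (counts per 1000000 reads) of recovered minus non-recovered animals, with its standard error (SE) from limma.

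Clustered protocadherins are cell-surface adhesion proteins of neurons that bind the same isoform on a facing membrane. A neuron switches on only a small, largely random set of them, and the set acts as a surface identity by which its own dendrites and axon branches recognise and avoid each other. An alpha or gamma transcript joins its own large first exon, which has a promoter of its own, to exons shared by its whole cluster. A beta gene is a large exon alone. The architectural factor CTCF, cohesin and DNA methylation take part in choosing the promoter.

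The gene models of the 5 members set what their reads can show. Pcdha3 (chr18:36946105-37187657, plus strand) is the third of 14 alpha genes and Pcdha12 (chr18:37020149-37187657, plus strand) the twelfth. Each has 4 exons in GENCODE M21. Their own exons, chr18:36946105-36948576 and chr18:37020149-37022623, are 2472 and 2475 nt long and hold the start codon and the coding sequence of the extracellular part. The remaining 2860 nt are 3 constant exons, at chr18:37156155-37156213, chr18:37159265-37159353 and chr18:37184946-37187657, which all 14 alpha genes share. The last of them holds the end of the coding sequence and the 3′ untranslated region. The sources used here do not name the read counter, so it is not known whether reads from these constant exons entered the values. Of the own exon of Pcdha12, 531 nt lie opposite exons of the antisense gene Gm10545.

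Pcdhb6 (chr18:37333921-37337674), Pcdhb7 (chr18:37341702-37345202) and Pcdhb9 (chr18:37400855-37403909) are on the plus strand, the sixth, seventh and ninth of 22 beta genes. Pcdhb6 and Pcdhb7 are direct neighbours whose starts lie 7.78 kb apart, and Pcdhb9 starts 59.2 kb after Pcdhb7. Their main coding transcripts have 1 exon, with exonic lengths of 3754, 3501 and 3055 nt and no base shared with another gene on their strand. By global alignment, the coding sequences of Pcdhb7 and Pcdhb9 were 88.8% identical, against 71% between Pcdhb6 and Pcdhb7 and 71.1% between Pcdhb6 and Pcdhb9. The variable coding sequences of Pcdha3 and Pcdha12 were 76% identical. Of all stretches of 50 nt in each transcript, 7.69% in Pcdhb6, 8.57% in Pcdhb7 and 8.75% in Pcdhb9 also occur in another annotated gene, and 14.9% and 13.3% do so in the own exons of Pcdha3 and Pcdha12. Pcdhb7 and Pcdhb9 share 189 such stretches with each other.

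The tables set the frame for every value below. They hold a part of all genes, by a rule that the sources used here do not give. No listed gene has an absolute log2 difference under 0.13 in ipsilesional or 0.12 in contralesional cortex. An unadjusted limma p under 0.05 was found for 74.5% of ipsilesional and 73.4% of contralesional genes. If the rule used the difference between recovered and non-recovered mice, all p-values below, adjusted or by permutation, are too small. By limma with Benjamini-Hochberg adjustment over a table, 3 ipsilesional genes (1.14%) and 33 contralesional genes (7.91%) had an adjusted p under 0.05. The 3 ipsilesional ones were all lower in recovered mice, and the contralesional ones were 8 higher (1.92%) and 25 lower (6%). Library totals recovered from the values ranged from 19116419 to 26310885 reads in ipsilesional and from 17972791 to 27895465 in contralesional libraries. None of the 5 general neuron markers or 6 astrocyte markers looked for is listed, so the tissue label could not be checked against them. In bulk tissue, fewer cells that use a gene and less RNA per cell cannot be told apart.

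Beside the lesion, both listed alpha genes were higher on average in recovered mice, by 1.37-fold for Pcdha3 and 1.28-fold for Pcdha12, and neither passed the adjusted threshold. In the table as a whole, 49.8% of genes were higher in recovered mice and the median log2 difference was -0.13. In Pcdha12, the more abundant of the pair, the recovered animals 6, 23 and 28 had 3.55, 3.36 and 3.39 log2 CPM. The non-recovered animals 17, 19, 20, 21 and 29 had 2.98, 2.88, 3.34, 2.92 and 3.24. All 3 recovered libraries lay above all 5 others, but by only 0.0208 between animal 23 and the non-recovered animal 20. Such separation is common in the table, where 42.2% of genes have groups that do not overlap (20.9% with the recovered group higher). The means were 3.43 ± 0.10 (SD, n = 3) and 3.07 ± 0.20 (SD, n = 5). The log2 difference was 0.36 ± 0.12 (limma p = 0.0165, adjusted p = 0.06; exact permutation p = 0.0357, 2-sided, over 56 splits).

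Pcdha3 was a low-count gene, with 27 to 61 reads per library. It stood at 1.29, 1.39 and 1.01 log2 CPM in the recovered animals 6, 23 and 28. The non-recovered animals 17, 19, 20, 21 and 29 stood at 0.90, 0.58, 1.04, 0.97 and 0.39. The groups overlapped, since the recovered animal 28 lay below the non-recovered animal 20, and the low values of animals 19 and 29 widened the non-recovered group. The log2 difference was 0.45 ± 0.17 (limma p = 0.026, adjusted p = 0.061; exact permutation p = 0.0893, 2-sided). An unadjusted limma p under 0.05 is shared by 74.5% of the table, 37.3% in each direction. Counting error alone gives this difference an SE of 0.16, close to the SE of 0.17 from the spread between animals.

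**Figure D1:**
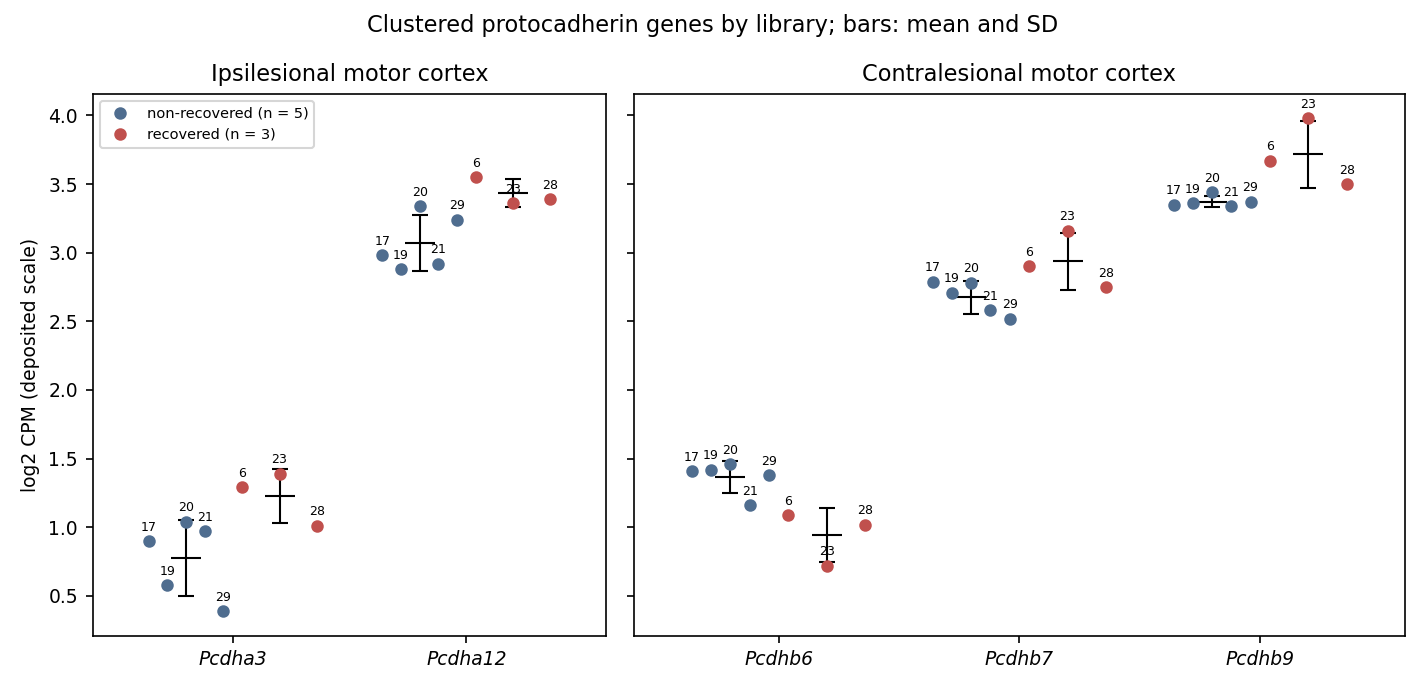
Deposited log2 CPM of the 5 listed cluster genes in each library, labelled by animal number, for non-recovered (blue, n = 5) and recovered mice (red, n = 3), with bars for mean and SD. The recovered libraries of Pcdha12 (3.36 to 3.55) and Pcdhb9 (3.50 to 3.98) lie above, and those of Pcdhb6 (0.72 to 1.09) below, all non-recovered ones, while the groups overlap in Pcdha3 and Pcdhb7.

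For the balance between the alpha genes, the groups overlapped. Of the reads given to either, Pcdha3 took 17.5% ± 2.22 (SD, n = 3) in recovered and 16.6% ± 3.21 (SD, n = 5) in non-recovered libraries (exact permutation p = 0.75, 2-sided). The lowest share was 11.6% in the non-recovered animal 29 (95% Wilson interval 8.36 to 16), and the highest were 20.1% in animal 21, also non-recovered, and 20% in the recovered animal 23. With 166 to 331 reads behind each share, the intervals of all 8 libraries overlap. This share, and those of the beta genes below, were chosen after the values had been seen, and their intervals cover counting error only. Per kilobase of own exon and averaged over all 8 libraries, Pcdha12 was present at 3.74 ± 0.636 CPM and Pcdha3 at 0.764 ± 0.176 (SD, n = 8), and per kilobase of all exons at 1.73 ± 0.295 and 0.354 ± 0.0817. Around the group means the correlation of their log2 CPM was r = 0.03 over 8 libraries, given as a description.

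The recovered animal 6, which had the highest Pcdha12 value, also stood apart in the listed markers of microglia and macrophages. The 3 of 9 markers listed, Itgam, Gpnmb and C3, summed to 147 CPM in that library, against 8.61 and 10.2 in the other recovered and 7.85 to 20.5 in the non-recovered ones. Without animal 6 the log2 difference of Pcdha12 was 0.30 (limma adjusted p = 0.114) and that of Pcdha3 0.42 (0.118). The 4 of 11 meningeal fibroblast markers listed summed to 353 to 643 CPM in recovered and 419 to 875 in non-recovered libraries. The 2 of 6 interneuron markers listed, Gad1 and Slc32a1, summed to 440 to 503 CPM in recovered and 376 to 445 in non-recovered libraries. Of 8 genes looked for as excitatory neuron markers only Calb1 is listed, at 89.8 to 112 and 111 to 137 CPM. A single gene cannot stand for that cell type. The 3 of 12 striatal markers listed summed to 182 to 235 and 170 to 212 CPM, but they differed in sign. Lrrc10b (-0.60 ± 0.23) and Pde10a (-0.32 ± 0.13) had lower means in recovered mice, and Scn4b (0.27 ± 0.12) a higher one. The only oligodendrocyte-lineage marker listed, Bmp4, was at 2.75 to 3.16 CPM in recovered and 2.93 to 4.83 in non-recovered libraries. The part of these markers in the alpha gene differences was not tested.

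In the hemisphere opposite the lesion, the 3 listed beta genes had differences of both signs. Pcdhb6 fell in recovered mice, to 0.75-fold of the non-recovered level, and was the only cluster gene with an adjusted p under 0.05. Its neighbour Pcdhb7 and the further beta gene Pcdhb9 were higher on average, by 1.20-fold and 1.27-fold, without passing that threshold. Over the whole contralesional table, 35.3% of genes were higher in recovered mice and the median log2 difference was -0.19.

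For Pcdhb6 the recovered animals 6, 23 and 28 had 1.09, 0.72 and 1.02 log2 CPM, from 45, 40 and 35 reads. The non-recovered animals 17, 19, 20, 21 and 29 had 1.41, 1.42, 1.46, 1.16 and 1.38, from 72, 65, 71, 44 and 69 reads. Every recovered library lay below every non-recovered one, animal 23 the lowest, with a gap of 0.066 to the non-recovered animal 21. Groups that do not overlap are found in 43.2% of the table, 25.4% with the recovered group lower. The means were 0.94 ± 0.20 (SD, n = 3) and 1.37 ± 0.12 (SD, n = 5). The log2 difference was -0.42 ± 0.10 (limma adjusted p = 0.0469; exact permutation p = 0.0179, 2-sided, the smallest that 56 splits allow). By size it ranked 58 among the 270 lower genes of the table.

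The call on Pcdhb6 was narrow and depended on how the spread was estimated. Counting error alone predicts an SD of 0.18 among its non-recovered libraries, above the 0.12 observed, and an SE of 0.16 for the difference, above the 0.10 that limma gave. With voom, which weights by read number, the difference was -0.45 ± 0.14 (adjusted p = 0.052), and without the recovered animal 23 it was -0.31 (limma adjusted p = 0.0793).

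Pcdhb9 was the most abundant of the 3 beta genes. The recovered animals 6, 23 and 28 had 3.67, 3.98 and 3.50 log2 CPM, from 278, 401 and 202 reads. The non-recovered animals 17, 19, 20, 21 and 29 had 3.35, 3.36, 3.44, 3.34 and 3.37, from 206 to 286 reads. The non-recovered values lay close together, with an SD of 0.04 where counting error alone predicts 0.09, and all 3 recovered values lay above them, by 0.0602 at the nearest. Over the table, 17.7% of genes have groups that do not overlap with the recovered group higher. The means were 3.72 ± 0.24 (SD, n = 3) and 3.37 ± 0.04 (SD, n = 5), with a log2 difference of 0.34 ± 0.10 (limma p = 0.00758, adjusted p = 0.052; exact permutation p = 0.0179, 2-sided, the smallest possible).

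Pcdhb7 had a higher mean in recovered mice with overlapping groups. The recovered animals 6, 23 and 28 had 2.90, 3.16 and 2.75 log2 CPM. The non-recovered animals 17, 19, 20, 21 and 29 had 2.79, 2.71, 2.78, 2.58 and 2.52. The recovered animal 28 lay below the non-recovered animals 17 and 20, and animal 23 was again the highest. The log2 difference was 0.26 ± 0.11 (limma p = 0.038, adjusted p = 0.0618; exact permutation p = 0.0714, 2-sided). As on the lesion side, an unadjusted limma p under 0.05 is common here, at 73.4% of the table (25.7% higher and 47.7% lower in recovered mice).

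**Figure D2:**
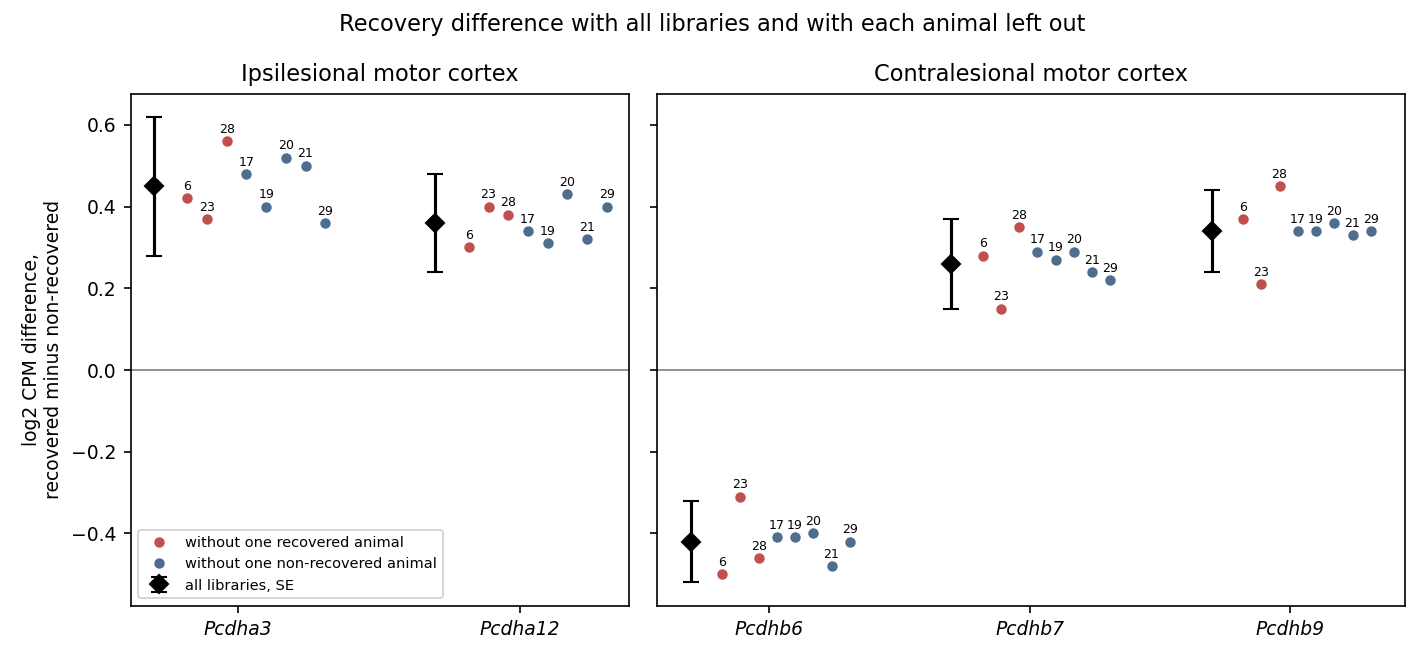
Log2 CPM difference (recovered minus non-recovered) of each cluster gene with all libraries (black, with SE) and with each animal left out (coloured by group, labelled by the animal removed). No sign changed. Removal of the library titled animal 23 moved the contralesional differences of Pcdhb6, Pcdhb7 and Pcdhb9 nearest to 0, to -0.31, 0.15 and 0.21.

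A ratio between genes of the same library does not depend on how that library was scaled. Pcdhb6 made up 9.28%, 5.99% and 9.83% of the reads of the 3 beta genes in the recovered animals 6, 23 and 28. In the non-recovered animals 17, 19, 20, 21 and 29 it made up 13.2%, 13.5%, 13.2%, 11.9% and 13.7%. The shares averaged 8.37% ± 2.08 (SD, n = 3) and 13.1% ± 0.709 (SD, n = 5) and did not overlap (exact permutation p = 0.0179, 2-sided, the smallest possible). The 95% Wilson intervals of animals 6 (7.01 to 12.2) and 28 (7.15 to 13.4) overlapped those of all non-recovered libraries, such as 8.95 to 15.5 in animal 21, and that of animal 23 (4.43 to 8.05) overlapped none. On the log2 scale the ratio of Pcdhb6 to Pcdhb7 and Pcdhb9 together differed by -0.75 between recovered and non-recovered mice, and by -0.51 without animal 23. The share uses the same reads as the differences above and is not independent evidence of them. Pcdhb6 alone was already lower, and Pcdhb9 alone higher, in every recovered library than in any non-recovered one. A share without overlap was therefore nearly fixed in advance, and its permutation p adds no support.

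Pcdhb7 and Pcdhb9, the pair with the most similar sequences, had overlapping groups in their ratio. Pcdhb9 took 63.3% ± 0.478 (SD, n = 3) of their joint reads in recovered and 62% ± 1.78 (SD, n = 5) in non-recovered libraries (exact permutation p = 0.286, 2-sided), with a range of 59.8% to 64.4% over all 8. Their log2 CPM varied together around the group means (r = 0.82 over 8 libraries, 0.57 over 7 without animal 23). Pcdhb6 varied against them (r = -0.25 with Pcdhb7 and -0.54 with Pcdhb9), but with them once animal 23 was left out (0.62 and 0.51 over 7 libraries). These correlations are descriptions, over libraries that share their scaling across genes. Per kilobase of exon and over all 8 libraries, Pcdhb9 was present at 3.72 ± 0.635 CPM, Pcdhb7 at 1.94 ± 0.283 and Pcdhb6 at 0.602 ± 0.105 (SD, n = 8). The order Pcdhb9, Pcdhb7, Pcdhb6 held in each library, and the differences between neighbours in it exceed these SDs.

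**Figure D3:**
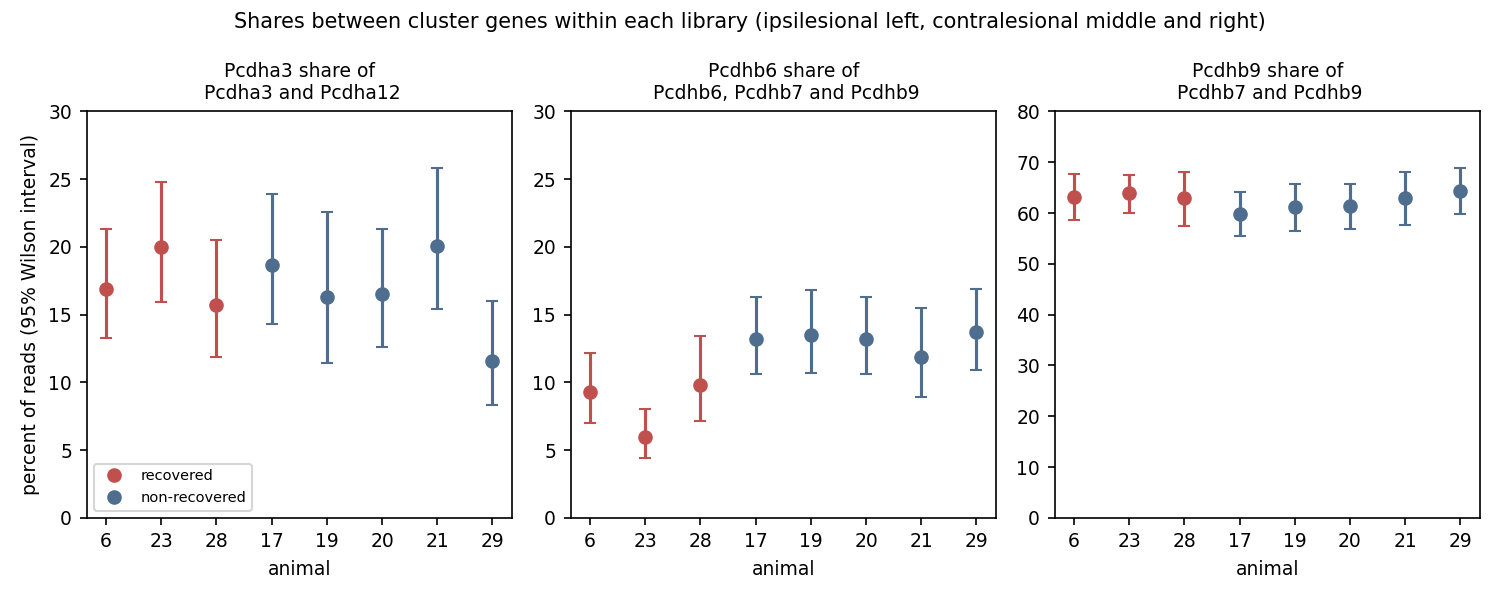
Share of reads of 1 cluster gene among 2 or 3 in each library, in percent with 95% Wilson intervals, by animal number for recovered (red) and non-recovered mice (blue). The Pcdhb6 share (5.99% to 9.83% against 11.9% to 13.7%) does not overlap between groups, while the Pcdha3 and Pcdhb9 shares do.

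Several library properties moved with the contralesional groups. Per doubling of exonic length, log2 CPM deviations from the gene means changed by -0.112 in animal 23, -0.045 in animal 28 and -0.015 in animal 6, against 0.024 to 0.044 in the non-recovered libraries. The beta genes lie on the short side of the table, with 33.9% (Pcdhb6), 31% (Pcdhb7) and 25.9% (Pcdhb9) of its genes shorter and a table median of 5244 nt. With each library's length trend removed, the log2 differences were -0.46 for Pcdhb6 (limma adjusted p = 0.0291), 0.21 for Pcdhb7 (0.12) and 0.28 for Pcdhb9 (0.0598), so the signs were as before. The 7 of 12 striatal projection neuron markers listed summed to 78.7 to 95.7 CPM in recovered and 99.6 to 159 in non-recovered libraries. The 3 of 11 meningeal fibroblast markers listed summed to 66 to 90.7 and 88.1 to 104, and the 2 beta-globin genes to 6.27 to 12.4 and 3.01 to 6.85. The interneuron marker Sst, the only one of 6 listed, was at 114 to 132 and 108 to 118 CPM, and no microglial marker is listed. The part of these markers in the beta gene differences was not tested. Titles and descriptions of the contralesional libraries disagree on which belongs to animal 6 and which to animal 23. Both are recovered animals, so the group values do not depend on it. Contralesional statements on animal 6 or animal 23 alone, including fits without either, may concern the other one.

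**Figure D4:**
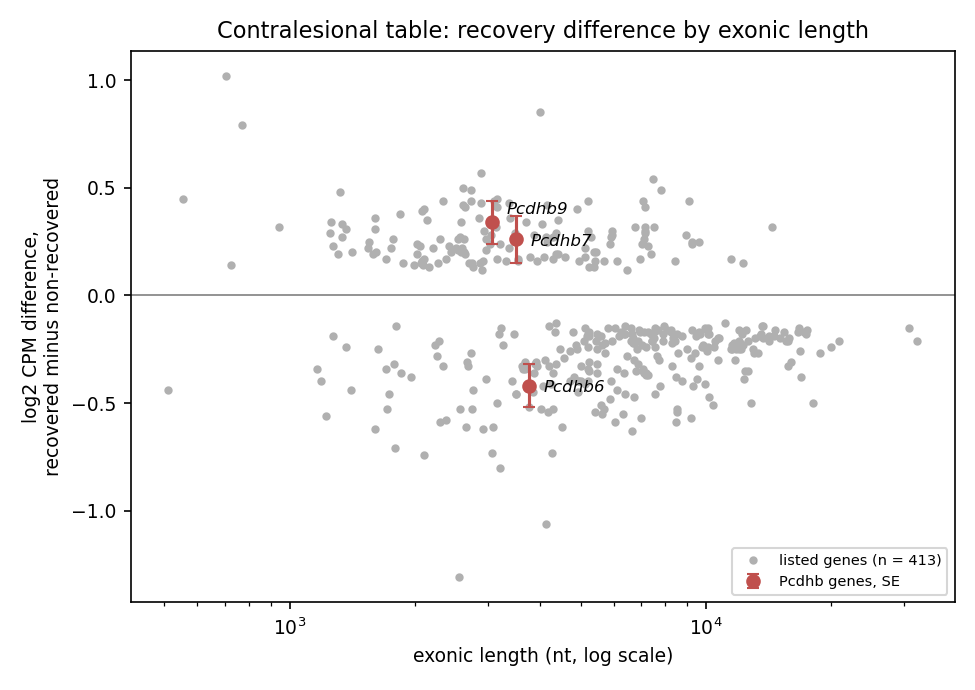
Log2 CPM difference (recovered minus non-recovered) against exonic length (log axis) for the 413 contralesional genes with a matched length, with the 3 Pcdhb genes in red with SE. Pcdhb6 (-0.42) lies among the lower genes and Pcdhb7 (0.26) and Pcdhb9 (0.34) among the higher ones at similar lengths of 3055 to 3754 nt.

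Within each table, the 5 genes with the most similar deviations around the group means were found for each member, as a description over 8 libraries. For Pcdhb6 they were Slmap (r = 0.93), Pde5a (0.92), the contactin-associated protein gene Cntnap5b (0.91), Mapk6 (0.90) and Klhl28 (0.89), with log2 differences of -0.40 to -0.16. For Pcdhb9 they were Apool (0.95), Fgfbp3 (0.92), the mitochondrial complex I gene Ndufb8 (0.87), the amino acid transporter subunit gene Slc3a2 (0.87) and Pcdhb7 (0.82), with differences of 0.16 to 0.29. For Pcdhb7 they included Pih1d1 (0.92), Hmmr (0.92), Rnh1 (0.90) and Eif6 (0.88). The differences of these 4 had mixed signs, from -0.54 for Hmmr to 0.22 for Rnh1. On the lesion side, Pcdha12 varied most like Pan2 (0.86), Pacsin2 (0.85), AI413582 (0.74), Hspb1 (0.73) and Hpse (0.68). Pcdha3 varied most like Klhl38 (0.76), Mpp1 (0.73), Spock3 (0.73), Pcsk4 (0.72) and Slc16a12 (0.71).

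Genes that work with or beside the clustered protocadherins were looked up in both tables. Of 26 non-clustered protocadherins and large cadherins, 0 are listed for ipsilesional and 2 for contralesional cortex. These were the calsyntenin gene Clstn3, which encodes a postsynaptic adhesion protein (0.16 ± 0.06, limma adjusted p = 0.0593), and Celsr3, a large cadherin of axon tract guidance (-0.22 ± 0.11, 0.0868). None of the 24 classical cadherins and catenins looked for is listed in either table. That fixed list left out the catenin gene Ctnna3, which is listed for ipsilesional cortex (-0.47 ± 0.14, limma adjusted p = 0.0574). Of 24 genes of promoter choice and chromatin, which include Ctcf, the cohesin subunits and the DNA methyltransferases, only the methylcytosine dioxygenase gene Tet2 is listed, contralesionally (-0.26 ± 0.13, adjusted p = 0.0868). Of 31 signalling partners of the cytoplasmic domains only the actin regulator gene Wasf2 is, also contralesionally (-0.17 ± 0.08, adjusted p = 0.0797). None of these passed the adjusted threshold.

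A fixed list of other recognition and synaptic adhesion molecules held 53 genes. It left out related listed genes such as Nectin3 on the lesion side and Cntnap5b, Nxph2 and Nxph3 opposite. Of the 53, 1 is in the ipsilesional and 4 in the contralesional table. Ipsilesionally this was Flrt3, a latrophilin ligand (-0.21 ± 0.09, limma adjusted p = 0.0711). Contralesionally these were its relative Flrt2 (-0.30 ± 0.11, adjusted p = 0.059) and the latrophilin gene Adgrl2 (-0.21 ± 0.10, 0.0733), with lower mean levels in recovered mice. The teneurin gene Tenm2 (0.17 ± 0.10, 0.115) and the adhesion molecule gene Chl1 (0.15 ± 0.08, 0.102) had higher ones. None of the 5 serotonergic neuron genes is listed. Of the 4 contralesional adhesion genes, 2 were higher and 2 lower, where 35.3% of the whole table was higher. Outside the clusters, the listed gene of chromosome 18 nearest to them was Cxxc5, in the ipsilesional table at 1.07 Mb.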

How the data were processed

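Poly(A) RNA of 16 libraries was sequenced after stranded library preparation, as the labels' protocols describe. Tools listed without roles, per the submitters' processing notes, are edgeR, STAR 2.5.1b, Trimmomatic 0.38 and bcl2fastq, with build mm10. How genes were selected, the read counter and the annotation: not given in the sources used here. The authors deposited log2 CPM of a part of all genes, 1 table per hemisphere. Each value equals a log2 CPM of whole reads to which a prior (2 on average, in proportion to library total) was added. Solving for this returned whole reads (within 0.01) for 100% of values.

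Groups came from sample titles. limma 3.58.1 (R 4.3.3) was fitted to the deposited log2 values over every gene of a table, with no filter and Benjamini-Hochberg adjustment. It was also run on simulated reads. That simulation did not model a selection of genes, so it does not bear on the calls here. Exact permutation tests used 56 splits. If genes were selected for a difference between these groups, all p-values given here, adjusted within a table or by permutation, are too small. Alternatives were other pseudocounts, a filter at a mean of 1 CPM, median centring, quantile normalization, voom, trended robust limma, adjustment over 21951 protein-coding genes, each library left out, and, added after seeing the data, removal of a trend on exonic length. Tables were normalized separately and not compared in level. Gene models are from GENCODE M21 (262 of 263 and 413 of 417 symbols matched). Members and lists were chosen with earlier results of these data known. Named were all members, their 5 most alike genes (1 is not reported here) and all listed genes of 6 lists. Replicates are separate animals.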

Additional observations from a re-analysis of the deposited data

Results flagged for a closer look

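Among the 5 non-recovered contralesional libraries, animal 21 had the lowest Pcdhb6 level, 1.16 log2 CPM, against 1.38 to 1.46 in the other 4. That level rests on 44 reads, and counting error alone predicts an SD of 0.18 in this group. The same animal had the lowest Pcdhb6 share of the beta gene reads, 11.9%, against 13.2% to 13.7% in the other 4. This share uses the same Pcdhb6 reads, and its 95% Wilson interval (8.95 to 15.5) holds the other 4 shares. In Pcdhb9, animal 20 was the highest non-recovered library at 3.44 log2 CPM, with the other 4 between 3.34 and 3.37. Each gap to the nearest library exceeded Dixon's 95% critical value as a share of the group's range, which chance reaches in about 1 in 20 groups.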

How the results depend on the processing

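No sign of a cluster gene's difference changed under any of the 9 other settings or the 8 fits that each left out a library. Pcdhb6 no longer passed the limma adjusted threshold on log2(CPM + 1) (-0.30), with median centring (-0.35), quantile normalization (-0.19), voom (-0.45), trended robust limma (-0.42, adjusted p = 0.0509) or adjustment over all protein-coding genes (-0.42, adjusted p = 1). It lay between -0.50 and -0.31 with 1 library left out, and 5 of those 8 fits (without 23, 28, 17, 19 or 20) lost the call; fewer libraries also give less power. Conversely, Pcdha3 (0.60) and Pcdhb7 (0.33) passed with quantile normalization, Pcdhb9 with median centring (0.41) and Pcdha12 with trended robust limma (0.36). With 1 library left out the ranges were 0.36 to 0.56 for Pcdha3, 0.30 to 0.43 for Pcdha12, 0.15 to 0.35 for Pcdhb7 and 0.21 to 0.45 for Pcdhb9, and none passed. The number of genes past the threshold changed far more. Ipsilesionally, from 3, it was 1 on log2(CPM + 1), 33 centred, 39 quantile-normalized, 0 with voom, 196 with trended robust limma, 0 over all protein-coding genes, 31 with the length trend removed and 0 to 18 with a library left out. Contralesionally, from 33, it was 3, 108, 77, 0, 2, 0, 70 and 0 to 74 in the same order. Apart from the settings whose construction adds tests or removes samples, the cause was not tested. No paired analysis was possible because recovered and non-recovered mice are different animals and no cluster gene is in both hemispheres' tables, which is also why the planned comparison between hemispheres was not run. At 27 to 72 reads per library, Pcdha3 and Pcdhb6 are limited by counting error.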
